A study of Mus musculus with 36 samples.

Results

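The regions described here are the places where the histone mark H3K4me3 was called in mouse embryonic stem cells grown in serum medium and was called neither after 24 h nor after 3 passages in 2i medium. The 3 deposited H3K4me3 peak lists were joined on chromosomes 1 to 19 and X wherever peaks overlapped by at least 1 bp, which gave 23044 regions (positions are on mouse build mm9). Of these, 3701 held a peak of the serum list alone, with no serum peak over 4000 bp, and are called serum-only regions below. They were chosen by their H3K4me3 calls and serum peak widths, so those measures are given below as description only. They made up 16.1% of all joined regions and 19.4% of the 19114 regions with a serum peak. A further 13233 regions were called in all 3 lists and are called constant regions. The other patterns were 859 regions in serum and at 24 h, 1320 in serum and at 3 passages, 304 at 24 h and 3 passages, 937 at 24 h alone and 2689 at 3 passages alone. "Lost" in this sense means not called in a deposited list, and it does not mean that no signal was left.

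All H3K4me3 cells were KH2, an established mouse embryonic stem cell line, and all media held LIF, the cytokine that sustains these cells. The groups were KH2 cells in standard serum medium, after 24 h in 2i and after 3 passages in 2i. The labels describe the serum cultures as grown over a confluent layer of irradiated CF1 mouse embryonic fibroblasts. 2i is a serum-free medium with inhibitors of the kinases MEK and GSK3. Each H3K4me3 list has 2 samples in the labels and 1 deposited table, whose peak names speak of pooled replicates. The labels give 1 sample each for both Oct4 lists, both KH2 Nanog lists of the second lot, the TKO list and Sox2 at 3 passages, and 2 for each other factor list. For the factors there were lists of Nanog with a first antibody lot (serum, 24 h and 3 passages), of Nanog with a second lot (24 h, and serum cells labelled GFP-high), of Sox2 (serum, 24 h and 3 passages) and of Oct4 (24 h and serum). One more Nanog list, of the second lot, came from DNMT triple knockout cells (TKO), which lack DNA methyltransferases, after 24 h in 2i. The labels do not say how GFP-high cells were obtained, whether 2i cultures also had feeders, or whether feeder chromatin was removed before precipitation. No expression values were used here, so the cell type was not checked against marker genes.

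Trimethylation of lysine 4 on histone H3 is laid down by the SET1 and MLL complexes. It peaks around the starts of active genes and over CpG islands, and it occurs at lower levels at some enhancers. Oct4 and Sox2 bind DNA as a pair at many enhancers of embryonic stem cells, and Nanog, a homeodomain protein, joins them at a large share of these sites. Cells in 2i are held in a more uniform naive state, in which signalling through ERK is blocked.

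On these chromosomes the serum list held 19284 H3K4me3 peaks, the 24 h list 17435 and the 3 passages list 18944. Their lowest −log10 q was 10.5 in serum, 4.91 at 24 h and 14.3 at 3 passages, so the lists do not rest on one threshold. There was 1 list per medium and read depth is unknown. No difference between media could therefore be set against replicates, and no test between media was run. Shares carry exact binomial 95% intervals (Clopper-Pearson) and medians carry exact binomial 95% intervals. Regions are not replicates, so all intervals cover counting error only.

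Serum-only regions were weak and narrow. Fold enrichment is the authors' ratio of a peak over the control, and it is compared here only within the serum list. Its median was 6.16 (6.10 to 6.22) at serum-only regions and 16.9 (16.7 to 17.1) at constant regions. The middle 50% of serum-only regions lay between folds of 5.25 and 7.42, and the highest reached 21.7. The median serum peak was 804 bp wide (791 to 817) at serum-only regions and 1855 bp (1838 to 1872) at constant regions. Regions called in serum and in 1 of the 2i lists lay between, with a median fold of 7.74 for those also called at 24 h and 6.76 for those also called at 3 passages. These values come from the list that chose the regions, so they are a description.

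**Figure D1:**
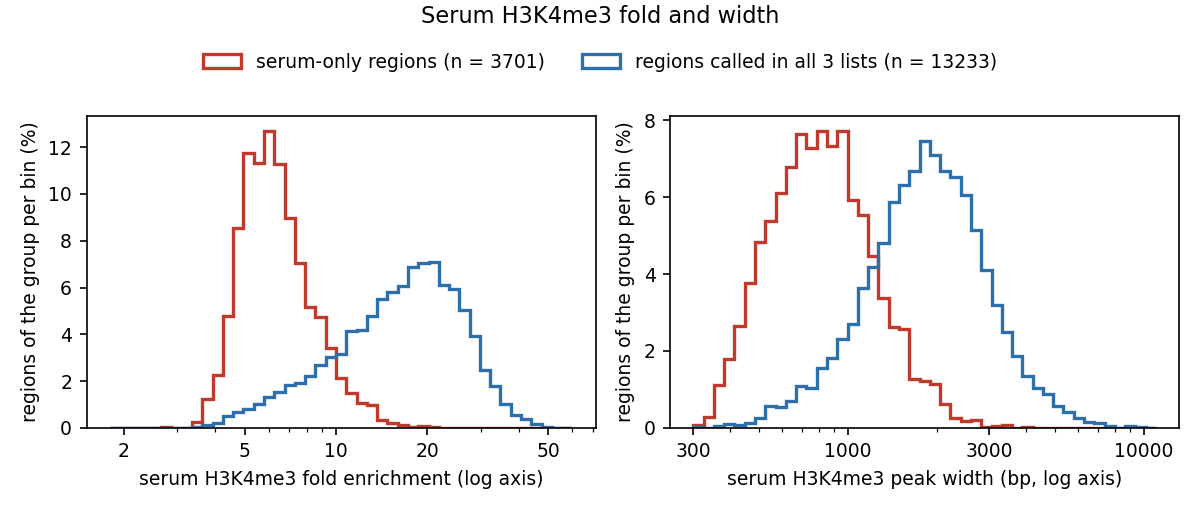
Distribution of the authors' serum H3K4me3 fold enrichment (left, log axis) and serum peak width in bp (right, log axis) for 3701 serum-only and 13233 constant regions, each as a percentage of its group per bin. Serum-only regions centre on a fold of 6.16 and a width of 804 bp, constant regions on 16.9 and 1855 bp.

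The share of serum regions that were serum-only was lower at higher serum fold. It was 56.6% (53.8 to 59.5) of the 1199 serum regions with a fold under 5, and 53.3% (51.7 to 54.9) of the 3965 with a fold from 5 to 7.5. From 7.5 to 10 it was 28.0% (26.2 to 29.9), and from 10 to 15 it was 6.13% (5.37 to 6.95). Above that, 16 of 7908 regions were serum-only, or 0.202%. None of the 1000 strongest serum regions was serum-only, which allows a share of up to 0.368%, and 2 of the 5000 strongest were. Width gave the same order, from 67.4% of regions under 600 bp to 2.80% of those of 1500 bp or more. A weak serum peak was not always without a 2i peak, since a serum fold from 5 to 7.5 held 2114 serum-only regions and 955 constant ones.

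**Figure D2:**
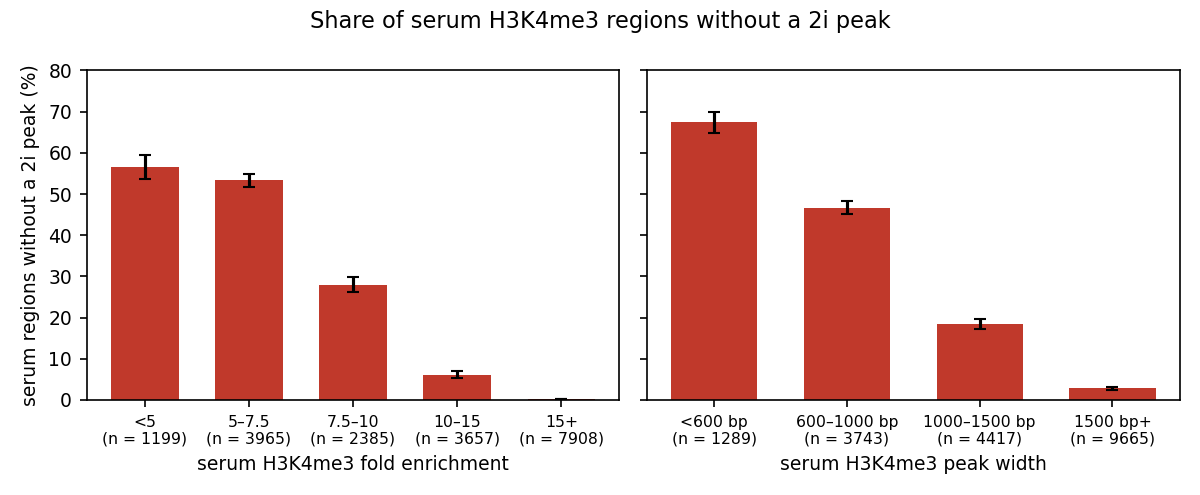
Share of serum H3K4me3 regions that were serum-only (bars, percent, with exact 95% intervals), by range of serum fold enrichment (left) and of serum peak width (right). The share is 56.6% under a fold of 5 and 0.202% from 15 upward; it is 67.4% under 600 bp and 2.80% from 1500 bp upward.

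How far the missing 2i calls depend on where the lists end can be read in part from the peak names. Of the 3701 serum-only regions, 1416 (38.3%) had a serum −log10 q below 14.3, the lowest value in the 3 passages list. The same count cannot be used for 24 h. The lowest value there is 4.91, and the serum list itself starts at 10.5, so no serum peak could lie below it. The values of different lists need not share a scale. Peak numbers rise along the genome in every list and run to 41613 at 24 h and 117835 at 3 passages, so each deposited table holds only part of its numbers. At 3685 serum-only regions a deposited 24 h peak lay on either side on the same chromosome. At 1099 of them (29.8%, 28.3 to 31.3) no number was skipped between these neighbours, so if numbers were given consecutively the longer 24 h numbering held no call there. For 3 passages this was so at 291 of 3688 (7.89%, 7.04 to 8.81). Over all gaps between deposited neighbours, 62.5% at 24 h and 35.9% at 3 passages had no number skipped. The gaps around serum-only regions had a median length of 144218 bp at 24 h and 124188 bp at 3 passages. A region is more likely to fall in a long gap, which has more room for skipped numbers. Gaps were not matched for length, so no conclusion is drawn from this difference. Both 2i lists had none skipped at 181 serum-only regions, whose median serum fold was 5.79 and whose highest was 14.5. These 181 lay a median of 7768 bp from a constant region, and 39.2% lay within 5 kb, against 15.9% of all serum-only regions. Picking regions with no number skipped favours short gaps between 2i peaks, so this nearness follows at least in part from how the 181 were picked. At the other regions 1 or more calls were left out somewhere between the neighbours, and whether they fell on the region is not known.

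Loss of a call was spread over the genome. Among autosomes the serum-only share of serum regions went from 14.5% (12.2 to 17.1) on chromosome 13 to 23.9% (21.0 to 26.9) on chromosome 15. On X it was 12.5% (9.88 to 15.6), from 69 of 551 regions. The 69 regions on X had a median serum fold of 7.33, beside 6.16 over all serum-only regions. Most serum-only regions stood alone. When those less than 5 kb apart were chained, 3337 remained single, 173 chains held 2 and 6 held 3.

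Taken as a whole, serum-only regions were not closer to constant regions than constant regions were to each other. The median distance, edge to edge, was 30.0 kb (28.0 to 32.2) for serum-only regions and 25.5 kb (24.6 to 26.3) from 1 constant region to the next. In all, 588 serum-only regions lay within 5 kb of a constant region, or 15.9% (14.7 to 17.1), against 19.8% (19.1 to 20.5) of constant regions measured to another. Under 1 kb the counts were 235 of 3701, or 6.35%, and 1418 of 13233, or 10.7%. Over 50 kb away lay 37.3% (35.7 to 38.8) of serum-only regions and 32.0% (31.2 to 32.8) of constant ones. Serum-only regions under 1 kb from a constant region were weaker than the distant ones, with a median serum fold of 5.46 against 6.49 over 50 kb away. Constant regions had the same order, with 14.8 under 1 kb from another and 16.4 over 50 kb away.

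**Figure D3:**
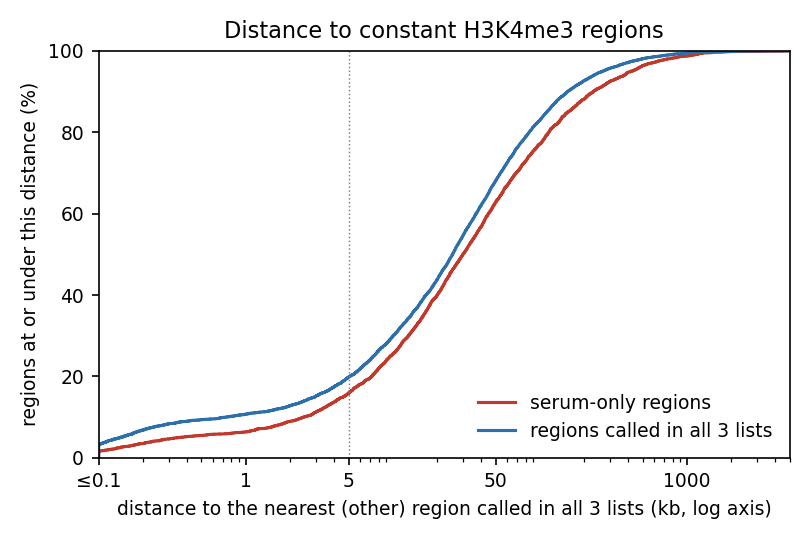
Cumulative share of regions (percent) by edge-to-edge distance in kb (log axis, distances under 0.1 kb drawn at 0.1) to the nearest constant region, or for constant regions to the nearest other one. The dotted line marks 5 kb, which 15.9% of serum-only and 19.8% of constant regions fall under.

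Calls in 2i close to the missing calls were counted as well. Within 1 kb, 350 serum-only regions (9.46%, 8.53 to 10.4) had a region with any 2i peak. In 30 cases (0.811%, 0.548 to 1.16) it was a region called in 2i and not in serum. Of these neighbours, 26 were called at 3 passages alone. The same counts were not made around constant regions, so whether these shares are low is not known. By a narrower count, 10.7% of constant regions had another constant region within 1 kb.

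The 10 serum-only regions with the highest serum fold, from 16.0 to 21.7, met no peak in any of the 10 factor lists of KH2 cells, nor in the TKO list. First came chr18:38839146-38841074, with a fold of 21.7, 75.9 kb from the nearest constant region. Next came chr1:121314817-121317731, with a fold of 20.4 and a width of 2915 bp. That region lay 62 bp from a region called in 2i, although the nearest constant one was 82.3 kb away. A further one of the 10 was chr1:121199043-121200549, which had a fold of 18.9. The region at chr17:35561734-35562361, with a fold of 19.1, was narrow at 628 bp. The fifth and the sixth were chr7:4642173-4643193, whose fold was 18.9, and chr7:88851007-88851815, whose fold was 17.7. The sixth lay 67 bp from another serum-only region. The rest were on chromosomes 15, 2, 17 and 4, with folds from 16.0 to 17.1. None of the 10 lay within 5 kb of a constant region, and 4 lay over 50 kb from one. Of the regions over 50 kb away, the one next in fold was at chr5:21849542-21851482, with a fold of 15.8 and 203.1 kb between it and the nearest 2i call. It too met no factor peak. In the 24 h numbering no call was skipped around chr4:146316087-146317356, the tenth in fold, whereas 11 were skipped there at 3 passages.

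Width picked out other regions. The widest serum-only region, at chr12:92921346-92925299, was 3954 bp wide with a fold of 9.10. It held Nanog and Sox2 in serum, at 24 h and at 3 passages, but not at 24 h with the second Nanog lot, and it held no Oct4 peak. The region next in width was at chr6:52052703-52056228, 3526 bp wide with a fold of 12.9. It held all 3 factors in serum. Of the other 3 widest, the one at chr7:133467354-133470712 held Nanog in every KH2 list and Sox2 at 24 h alone. Both others, on chromosome 15, held none. The limit of 4000 bp left out 1 region, at chr19:5796158-5803666, which was 7509 bp wide with a fold of 28.8.

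Factor peaks were next counted at each region, a measure that had no part in choosing it. Of the 3701 serum-only regions, 469 met a peak of at least 1 of the 10 KH2 factor lists, or 12.7% (11.6 to 13.8), and 3232 met none. Of the constant regions, 35.7% (34.9 to 36.5) met at least 1. In each of the 10 lists the serum-only share was below the constant share, and the 2 intervals did not overlap. The same order held in all 10 lists under each of the 6 other ways of counting that were tried. Some of these could not change every list. A minimum factor −log10 q of 10 could alter only the Sox2 lists at 24 h and 3 passages. Equal length leaves the shortest list of each factor and lot as it is.

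With the first lot of the Nanog antibody, 7.30% (6.48 to 8.18) of serum-only regions held a peak in serum, 9.40% (8.48 to 10.4) at 24 h and 5.67% (4.95 to 6.47) at 3 passages. Over all 23044 joined regions, the background, these shares were 15.1%, 24.1% and 14.3%. At constant regions they were 16.7%, 29.0% and 14.2%. The 24 h list is the longest of the 3, and with the lists cut to equal length by −log10 q the serum-only shares became 7.30% in serum, 5.57% at 24 h and 4.32% at 3 passages. The higher share at 24 h than in serum therefore turned round when list length was held constant. With the second lot, 2.70% (2.20 to 3.28) of serum-only regions held Nanog at 24 h and 4.54% (3.89 to 5.26) in GFP-high serum cells, over backgrounds of 8.39% and 10.9%. TKO cells, at 24 h, had Nanog at 296 of 3701 serum-only regions (7.14% to 8.92%) and 25.3% (24.6 to 26.1) of constant regions, over a background of 21.2%. At 101 serum-only regions (2.73%, 2.23 to 3.31) the TKO list had a Nanog peak and no KH2 Nanog list did. The same held at 938 of 13233 constant regions, or 7.09% (6.66 to 7.54).

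Sox2, the usual partner of Oct4, was called at 4.94% (4.27 to 5.69) of serum-only regions in serum, 2.38% (1.91 to 2.92) at 24 h and 1.68% (1.29 to 2.14) at 3 passages. The backgrounds were 9.79%, 6.81% and 4.86%, and the constant regions gave 10.7%, 6.51% and 4.29%. At equal length the serum-only shares were 3.51% in serum, 1.54% at 24 h and 1.68% at 3 passages, which keeps both 2i shares below the serum share. Oct4 was called at 1.16% (0.842 to 1.56) of serum-only regions at 24 h and 1.68% (1.29 to 2.14) in serum, over backgrounds of 4.57% and 3.85%. At constant regions the Oct4 order was opposite, 4.22% at 24 h and 3.66% in serum, but at equal length it turned to 2.84% and 3.66%.

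**Figure D4:**
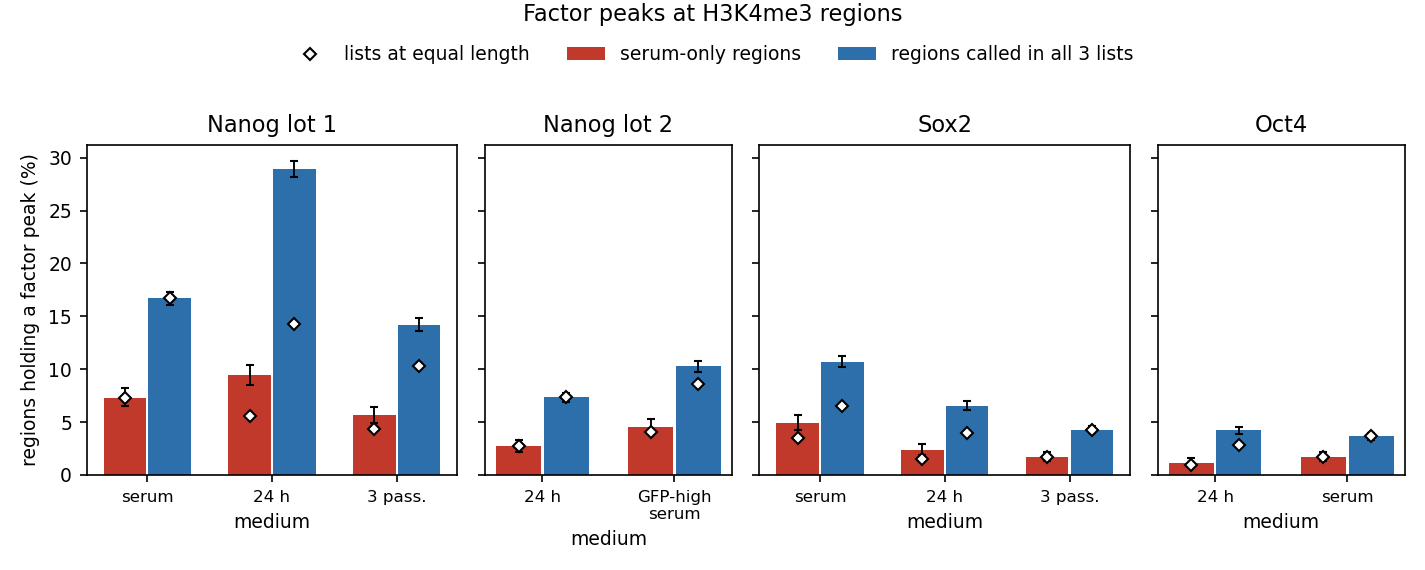
Share of serum-only and constant H3K4me3 regions (percent, bars with exact 95% intervals) that hold a peak of each factor list, by medium; diamonds give the share with the lists of 1 factor and lot at equal length. Every serum-only bar lies below its constant neighbour, and the Nanog lot 1 share at 24 h drops from the highest of its panel to 5.57% at serum-only regions once lists are of equal length.

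The comparison was repeated within ranges of serum fold and width, counting factor peaks over the serum H3K4me3 peak itself. There were 15 combinations of fold and width with at least 20 regions in each group. In all 15 and for each of the 10 lists, the serum-only share was the lower one. Weighted to the fold and width of serum-only regions, any factor peak was met by 12.7% of serum-only regions against 33.9% of constant regions. The same pair was 7.29% of serum-only against 19.5% of constant regions for Nanog in serum, 4.98% against 13.2% for Sox2 in serum and 1.69% against 6.45% for Oct4 in serum. Among constant regions the share with any factor was also lower at higher fold up to 15, at 47.0% under 5, 37.1% from 5 to 7.5, 31.6% from 7.5 to 10 and 31.0% from 10 to 15, and it was 36.8% from 15 upward. Regions called in serum and at 3 passages met any factor peak in 28.5% (26.1 to 31.0) of cases and those called in serum and at 24 h in 21.1% (18.4 to 24.0), between the other 2 groups.

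Among serum-only regions themselves, factor peaks became rarer as the H3K4me3 fold rose. Any factor was met by 24.7% (21.5 to 28.2) of those with a fold under 5, 11.2% (9.90 to 12.6) from 5 to 7.5, 7.34% (5.48 to 9.58) from 7.5 to 10 and 5.80% (3.13 to 9.72) from 10 to 15. Of the 16 regions with a fold of 15 or more, 2 met one, which allows 1.55% to 38.3%. The 469 regions with a factor had a median fold of 5.52 (5.35 to 5.63) and a median width of 900 bp (850 to 950), against 6.26 (6.18 to 6.27) and 794 bp (778 to 807) for the 3232 without. They were also nearer to constant regions, with 24.3% (20.5 to 28.5) within 5 kb against 14.7% (13.5 to 15.9). Where Nanog was present at serum-only regions, its summit lay a median of 390 bp from the H3K4me3 summit in serum.

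**Figure D5:**
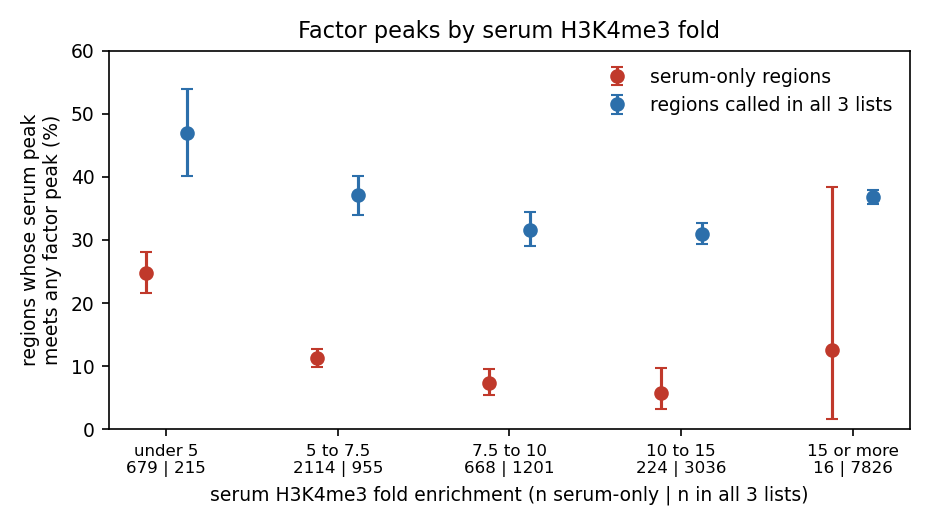
Share of regions (percent, points with exact 95% intervals) whose serum H3K4me3 peak meets a peak of any of the 10 KH2 factor lists, by serum fold range; numbers under each range are the serum-only and constant regions in it. From a fold under 5 to a fold of 10 to 15 the serum-only share goes from 24.7% to 5.80% and the constant share from 47.0% to 31.0%, and the serum-only share is the lower one in every range.

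In serum, the Nanog and Sox2 peaks at serum-only regions were near the middle of their lists in fold. Oct4 peaks were lower in both groups, with a median fold of 15.5 at serum-only regions and 15.7 at constant regions, beside 18.4 over the list. The serum Nanog peaks met by serum-only regions had a median Nanog fold of 11.5, beside 12.1 over the whole list. Those at constant regions had a median of 8.65. For Sox2 in serum the medians were 9.82 at serum-only regions, 7.85 at constant regions and 9.79 over the list. Serum-only regions took up 1.10% of the serum Nanog list and 1.42% of the serum Sox2 list. Counting an overlap as 0 kb, the nearest serum Nanog peak was a median of 26.5 kb (24.96 to 27.96) from a serum-only region and 18.6 kb (17.8 to 19.3) from a constant one, and 19.4% and 29.0% had one within 5 kb.

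Factor binding was then followed from serum into 2i at the same serum-only regions. Of the 270 with Nanog in serum (first lot), 224 still held Nanog at 24 h, or 83.0% (77.9 to 87.2), against 90.2% (88.9 to 91.4) at constant regions. Nanog was present at 24 h alone in 124 and in serum alone in 46, where the background shares are 10.6% and 1.52% of all regions. At 3 passages 162 of the 270 held it, an interval of 53.9% to 65.9%, against 60.2% (58.1 to 62.3) at constant regions. Here 48 had Nanog at 3 passages alone and 108 in serum alone, over backgrounds of 4.27% and 5.06%. At equal length the 24 h counts turned round, with Nanog at 24 h alone in 41 and in serum alone in 105, and so did the shares over all regions, 2.76% and 4.53%. At equal length the shares retained came to 61.1% at 24 h and 48.9% at 3 passages, against 66.6% and 48.0% at constant regions. With the second lot 78 of the 168 regions bound in GFP-high serum cells were called at 24 h, or 46.4% (38.7 to 54.3), against 56.1% (53.4 to 58.8) at constant regions, with 22 at 24 h alone and 90 in GFP-high serum alone. The backgrounds for the last 2 were 1.70% and 4.24%. At equal length the second lot was retained at 50.3% (42.0 to 58.6) of serum-only regions and 63.9% (61.0 to 66.7) of constant regions. These intervals do not overlap.

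Sox2 calls were mostly not retained. Of 183 serum-only regions with Sox2 in serum, 77 held it at 24 h, or 42.1% (34.8 to 49.6), against 48.6% (45.9 to 51.2) at constant regions. At 3 passages 58 did, or 31.7% (25.03 to 38.97), against 34.9% (32.4 to 37.4). Gains were few, with 11 regions bound at 24 h alone against 106 in serum alone, and 4 at 3 passages alone against 125 in serum alone. Over all regions the backgrounds were 1.48% and 4.47% at 24 h and 0.673% and 5.60% at 3 passages. At equal length the counts at 3 passages were 8 at 3 passages alone against 76 in serum alone. The shares retained at equal length were 39.2% (30.8 to 48.2) at 24 h and 41.5% (33.0 to 50.5) at 3 passages. The order of the 2 times as deposited thus turned round. At constant regions the equal-length shares were 50.2% (46.8 to 53.6) at 24 h and 52.1% (48.8 to 55.5) at 3 passages. Over all joined regions, 54.4% and 42.8% were retained as deposited, and 55.3% and 58.5% at equal length.

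For Oct4, as for the first lot of Nanog at 24 h, the intervals of the 2 groups did not overlap in the lists as deposited. Of 62 serum-only regions with Oct4 in serum, 33 held it at 24 h, or 53.2% (40.1 to 66.0), against 75.2% (71.1 to 79.0) at constant regions. It was called at 24 h alone in 10 and in serum alone in 29, with backgrounds of 1.59% and 0.872%. At equal length 31 of 62 serum-only regions (37.0% to 63.0%) and 62.4% (57.9 to 66.7) of constant regions retained it, and these intervals overlap. All 3 factors together were called at 28 serum-only regions at 24 h (0.757%) and at 47 in serum (1.27%). At constant regions these shares were 2.76% and 2.40%. At 22 serum-only regions all 3 were called both at 24 h and in serum. That is 46.8% (32.1 to 61.9) of the 47, against 79.2% (74.3 to 83.5) of the 317 constant regions with all 3 in serum. At 3 of the 47 no factor was left at 24 h, against 3 of the 317 constant regions. These joint counts use the lists as deposited and were not recomputed at equal length.

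Single regions differed in which factors were still called. At chr13:44799706-44801009, where the serum H3K4me3 fold was 8.08, the authors' Nanog fold was 57.0 in serum, 33.5 at 24 h and 35.6 at 3 passages. Sox2 had folds of 27.8, 23.5 and 17.2 there, and Oct4 of 80.7 at 24 h and 56.7 in serum. Folds of different lists are not on one scale, and all that can be said is that each list called the site. This is 1 of 16 serum-only regions that met a peak in all 10 KH2 lists, whose H3K4me3 folds ran from 3.85 to 8.08. The 16 are 0.432% of serum-only regions, against 191 of 13233 constant regions, or 1.44%.

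The region at chr6:52052703-52056228 had other calls. Its serum folds were 27.7 for Nanog, 19.6 for Sox2 and 12.3 for Oct4. Nanog remained called in all KH2 lists and Sox2 at 24 h, whereas Oct4 was not called at 24 h and Sox2 was not called at 3 passages. At chr3:84459431-84460952, Oct4 was called at 24 h as in serum, with folds of 29.9 and 25.7, while Nanog and Sox2, called in serum with folds of 10.2 and 13.6, were called in no 2i list. The regions at chr11:101649148-101650286 and at chr9:114434951-114437376 had Nanog called at 24 h with the first lot, and neither Sox2 nor Oct4 in any 2i list. The region on chromosome 11 lay 1.15 kb from a constant region.

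Only 1 serum-only region had Nanog and Sox2 together in 2i and neither in serum. It lay at chr2:150798666-150799013, was 348 bp wide with an H3K4me3 fold of 5.99, and met Nanog and Sox2 at 3 passages with folds of 18.3 and 6.10. Across all 10 KH2 lists, 116 serum-only regions (3.13%, 2.60 to 3.75) had a factor in 2i and none in serum, and 77 (2.08%, 1.65 to 2.59) the reverse. At constant regions these shares were 12.5% and 3.90%. These counts use the lists as deposited, of which 6 are from 2i and 4 from serum, and the Nanog lot 1 list at 24 h is the longest, with 41729 peaks against 25513 in serum. Their balance was not recomputed at equal length, where the Nanog lot 1 balance at 24 h turned round.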

How the data were processed

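The labels list 36 samples; the 14 peak lists analysed here come from 22 of them. Per the submitters' processing notes, reads were handled on build mm9 with a tool set that names MACS2, Bowtie 0.12.7 and BWA 0.5.7. How deposited peaks were selected, and with which aligner, the sources used here do not give. The deposited columns used were the authors' fold, a ratio of pulldown to control, their −log10 q and the summit offset. No read counts are given, so depth is unknown and the precision it gives cannot be stated.

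Peaks on chromosomes 1 to 19 and X were joined at an overlap of 1 bp (Python 3.11.15, numpy 2.4.6, pandas 2.3.3, scipy 1.17.1). The joining, overlap and distance code was tested on simulated lists and against bedtools 2.31.1. Distances are edge to edge. A region holds a factor if a factor peak overlaps it by 1 bp. Equal length keeps the peaks of largest −log10 q. Positions are mm9, counted from 1. No annotation or genome of mm9 was at hand, so no gene, exon or sequence is given, and the planned gene lists were not used.

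Regions were named by rule: the 10 of highest serum fold, the 5 of highest fold over 50 kb from a constant region, the 5 widest, the 5 of highest fold with Oct4, Sox2 and Nanog in serum, up to 5 with Nanog and Sox2 in 2i and neither in serum, and those next to the 4000 bp limit. The members, lists and ranges were chosen with earlier results of these data known. H3K27me3, whole-cell extract and RNA samples were not analysed here. Alternatives were other cutoffs, list lengths, overlaps and windows.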

Additional observations from a re-analysis of the deposited data

Results flagged for a closer look

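The 2 antibody lots of Nanog moved in opposite directions at serum-only regions, as they did over all joined regions and at constant regions. With the first lot the share holding Nanog at 24 h of 2i minus the share in serum was 2.11 percentage points, and with the second lot the share at 24 h minus the share in GFP-high serum cells was -1.84 percentage points. Over all joined regions the first lot went from 15.1% in serum to 24.1% at 24 h. The second went from 10.9% in GFP-high serum cells to 8.39% at 24 h. At constant regions these pairs were 16.7% and 29.0% for the first lot, and 10.3% and 7.33% for the second. The opposite directions are therefore not particular to serum-only regions. Each lot has 1 list per medium, and the difference between the lots was not tested. The lots also differ in the serum cells used and in list length. At equal length both lots moved down at serum-only regions. The shares were 5.57% at 24 h against 7.30% in serum for the first lot. For the second they were 2.70% at 24 h against 4.03% in GFP-high serum cells.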

How the results depend on the processing

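Of 90 recomputed values, 59 stayed within the interval of the reported value or, for counts, within 1.5 times of it, and 31 moved. The 59 include values that a setting could not change, such as factor lists with no peak under a −log10 q of 10. The number of serum-only regions ran from 2590 with the 3 H3K4me3 lists at equal length (17435 peaks) to 4317 with a minimum −log10 q of 10, which shortens the 24 h list alone. Their median serum fold was 6.26 with that minimum, 6.99 at equal length, 6.22 when peaks up to 1000 bp apart were joined, and 7.21 with all lists limited to a −log10 q of 14.3, a setting added after the data were seen. The median width was 835 bp, 872 bp and 916 bp with the minimum of 10, equal length and the limit of 14.3. The share within 5 kb of a constant region was 14.0% with the minimum of 10, 12.5% with the limit of 14.3 and 10.1% after joining at 1000 bp. Requiring that 50% of the shorter peak be covered, or leaving out X, moved none of these 4.

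Factor peaks within 1000 bp of a serum-only region, rather than over it, gave higher shares: for Nanog lot 1, 10.5% in serum, 14.1% at 24 h and 8.92% at 3 passages; for lot 2, 4.86% at 24 h and 6.84% in GFP-high serum; for Sox2, 6.94% in serum, 4.40% at 24 h and 2.78% at 3 passages; for Oct4, 2.05% at 24 h and 2.19% in serum. Factor lists at equal length gave 5.57% for Nanog lot 1 at 24 h, 4.32% at 3 passages, and 3.51% and 1.54% for Sox2 in serum and at 24 h. A minimum −log10 q of 10 gave 1.35% for Sox2 at 24 h. Regions chosen with H3K4me3 lists at equal length gave 4.94% for Nanog at 3 passages, and those over 5 kb from a constant region gave 8.19% at 24 h and 4.95% at 3 passages. At equal length, a comparison added after the data were seen, Nanog was retained at 61.1% of its serum sites at 24 h and 48.9% at 3 passages, and Sox2 at 41.5% at 3 passages. Where no construction shows it, the cause was not tested.

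No paired analysis was possible because each deposited list is 1 table per group, and no replicate was left out on the same ground. Depth is unknown, and weak and absent signal in 2i cannot be told apart.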
